A study of Mus musculus with 4 samples.

Results

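Runx2-bound regions that lie in protein-coding sequence were drawn from 3 peak lists of Runx2 ChIP-Seq in differentiating mouse preosteoblasts. Merging every set of peaks with at least 1 bp in common across the day 0, day 9 and day 28 lists gave 67703 regions over the mm9 genome. A region was taken as coding when its centre fell in the coding sequence (CDS) of a protein-coding transcript of GENCODE M1 and lay more than 1 kb from every protein-coding transcription start site (TSS). This left 2072 coding regions, 3.06% of all regions (exact 95% binomial interval 2.93 to 3.19). The other regions were 12315 near a TSS, 911 in exons outside CDS, 25724 in introns and 26681 between genes. The rule used position alone, so the time pattern, peak score, sequence and gene of each region played no part in choosing it. It was applied to the centre only, so a wide region can extend outside CDS or to within 1 kb of a TSS.

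MC3T3-E1 subclone 4 is a mouse calvaria cell line, labelled C57BL/6, that makes and mineralizes a bone-like matrix in ascorbic acid and beta-glycerophosphate. Chromatin was taken from proliferating preosteoblasts (day 0), matrix-depositing cells (day 9) and mineralizing cells (day 28), and was precipitated with the Runx2 antibody M70. All 3 groups are the same unmodified line, and each is represented by 1 list, made by the authors from the pooled reads of biological repeats, so no difference between days could be tested against culture-to-culture spread. An input library from matrix-depositing cells was not analysed here. The number of peaks was 25457 on day 0, 60596 on day 9 and 40330 on day 28, with median widths of 917, 554 and 763 bp. The lists hold no read totals. Per the study, day 0 was sequenced most deeply, although its list is the shortest. A peak missing from a list is a peak below the caller's threshold, not an absence of Runx2. Fewer cells bound and weaker binding in each cell cannot be told apart. Intervals given with shares cover counting error only.

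Runx2 is the Runt-family transcription factor that commits mesenchymal cells to the osteoblast lineage. Its Runt domain pairs with the partner Cbfb, contacts DNA at a core written TGTGGT on one strand and ACCACA on the other, and recruits co-activators or co-repressors. Binding sites of such factors are studied mostly at promoters and in non-coding enhancers, whereas in coding exons the same bases also spell codons.

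The core is shown here as it stands inside coding exons. The 9 sequences are from coding regions that ranked high among those with a core within 15 bp of the centre. Each run is 30 bases of the mm9 reference, written 5′ to 3′ on the strand of the gene. Capitals mark a single core per run, in either orientation. The Prol1 run also ends in another ACCACA, which is left in lower case.
Irs1: accccccactcaACCACAgccgctccatcc
Prex1: tgaggacagcgcTGTGGTcagcctgacgct
Adrbk2: agcggcctctgaACCACAgagcagcggggc
Tcam1: gcatctctgctgACCACAaacaaactcttt
F12: tggggctccggcTGTGGTgaccgcaacaag
Zfp961: gaatgtaaggagTGTGGTaaggtgttctca
Ppp1r12b: gcagcagcttccTGTGGTtatctcaacata
Prol1: acaccagcaccgACCACAaaacctaccaca
Rgs3: gctcgtgtggcgTGTGGTcccccagatcaa

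These stretches lie at chr1:82285958-82285987 on the minus strand for Irs1, an adaptor of the insulin and IGF1 receptors. Prex1, a Rac exchange factor, is shown at chr2:166412665-166412694 on the minus strand, and Adrbk2, a kinase of G-protein-coupled receptors, at chr5:113343915-113343944 on the minus strand. Tcam1, a cell adhesion gene, is shown at chr11:106148331-106148360 on the plus strand, and F12, coagulation factor XII, at chr13:55519523-55519552 on the minus strand. Zfp961 encodes a C2H2 zinc finger protein and is shown at chr8:74492807-74492836 on the plus strand. Ppp1r12b, a myosin phosphatase targeting subunit, is shown at chr1:136798960-136798989 on the minus strand. Prol1, a proline-rich secreted protein gene, is at chr5:88757327-88757356 and Rgs3, a regulator of G-protein signalling, at chr4:62286800-62286829, both on the plus strand.

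The core falls in different reading frames in these genes. In F12, Zfp961 and Ppp1r12b its first 3 bases and its last 3 are each a codon, for cysteine and glycine. In Prol1 ACCACA is likewise a whole pair of codons, both for threonine, and in Irs1, Prex1 and Rgs3 it straddles 3 codons. In Adrbk2 and Tcam1 part or all of the core lies past the coding segment of the last exon. Of the 9 regions, 5 were in all 3 lists (Irs1, Tcam1, F12, Ppp1r12b and Rgs3), 3 were in the day 9 and day 28 lists (Prex1, Adrbk2 and Prol1), and that of Zfp961 was in the day 0 list alone.

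Peak height is given as a percentile within its own list, which is the share of that day's peaks with a lower score, ties at their middle rank. Scores depend on sequencing depth, so percentiles are not levels and were not subtracted between days. The Irs1 region, 5702 bp wide and the widest of all coding regions, stood at percentiles 88.2, 97.4 and 97.8 on days 0, 9 and 28. Only its centre had to meet the rule, so its rank need not be that of the coding sequence alone. The Rgs3 region stood at 75.3, 68.0 and 66.8, and the Ppp1r12b region at 80.7, 74.96 and 59.9. The Adrbk2 region had no day 0 peak and stood at 89.3 on day 9 and 68.0 on day 28. Among these regions Irs1 therefore ranked highest at every stage.

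Coding regions were mostly peaks of the matrix deposition stage. A peak of the day 9 list was present at 1966 of the 2072 coding regions, which is 94.9%, against 84.7% of all regions. A day 28 peak was present at 615, or 29.7%, against 58.2%, and a day 0 peak at 230, or 11.1%, against 36.8%. The coding regions thus shared the day 9 list with most of the genome's regions but were less often in the lists of proliferating and mineralizing cells.

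The 7 possible time patterns differed in the same way. In the day 9 list alone were 1411 coding regions, 68.1% (66.0 to 70.1), against 34.5% of all regions and 40.7% (40.1 to 41.3) of intronic regions. Days 9 and 28 together held 357, 17.2% (15.6 to 18.9), against 21.1% of all regions, and all 3 days held 178, 8.59% (7.42 to 9.88), against 27.4%. Thus coding regions kept through the whole course were scarce beside those seen at matrix deposition alone. Day 28 alone held 74 coding regions, against 7.59% of all regions, and day 0 alone held 26, against 5.6%. Days 0 and 9 held 20, against 1.69%, and days 0 and 28 held 6, against 2.06%.

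**Figure D1:**
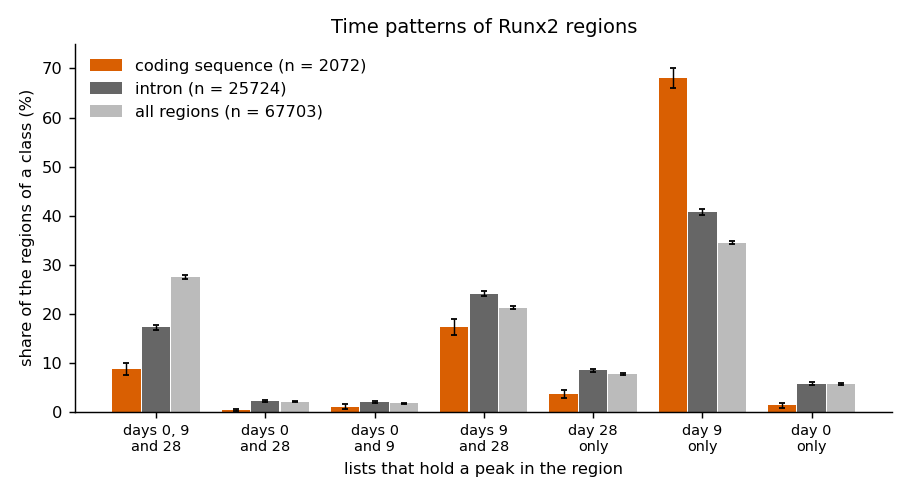
Bars give the percent of coding regions, intronic regions and all regions in each of the 7 time patterns, with exact 95% binomial intervals. The day 9 only bar is the tallest for coding regions at 68.1% and stands above the 40.7% of intronic regions, while the bar for all 3 days is lower for coding regions (8.59%) than for intronic ones (17.2%).

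Because the day 9 list is the longest, the patterns were also taken from the 25457 highest-scoring peaks of each list. This left 538 coding regions, and the day 9 only share of them was 25.5%, against 11.9% of all regions so made. All 3 days held 26.4% against 37.7%. The pattern of days 9 and 28 turned, to 22.7% of coding regions against 13.7% of all regions. Days 0 and 9 held 2.42% against 1.70%, and day 28 only 8.55% against 8.40%. These shares rest on 13 and 46 coding regions and carry no interval, so no direction is read from them. A day 0 peak was at 43.3% against 66.0%, a day 9 peak at 76.95% against 64.99% and a day 28 peak at 59.7% against 66.4%. The shortfall of day 28 peaks in coding regions was thus smaller with lists of equal length. The coding share of regions with a peak was then 0.935% (day 0), 1.69% (day 9, 1.53 to 1.86) and 1.28% (day 28). With the full lists it was 0.923% (0.808 to 1.05), 3.43% (3.28 to 3.58) and 1.56% (1.44 to 1.69). The order of the days was the same with lists of equal length, and the distance between day 9 and the other days was smaller.

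Most coding regions were weak peaks of the day 9 list. Their median percentile at day 9 was 29.9 (27.9 to 32.0), below the 44.6 of intronic regions and the 79.2 of regions near a TSS. At day 0 the median was 43.5 (38.0 to 54.8) against 44.1 for introns, and at day 28 it was 38.7 against 40.0. Coding regions therefore ranked below intronic regions at day 9, whereas at days 0 and 28 the medians lay close to each other.

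Regions found in 1 list alone had low ranks, with median percentiles of 21.96 for day 9 only, 15.3 for day 28 only and 22.03 for day 0 only. The 20 regions of days 0 and 9 had medians of 20.1 on day 0 and 14.1 on day 9. The 178 coding regions present in all 3 lists had medians of 54.5, 80.0 and 68.8 at days 0, 9 and 28. Over successive steps of 10 percentiles of the day 9 list, the share of regions that were coding fell from 6.39% (5.76 to 7.06) in the lowest step to 1.42% (1.14 to 1.76) in the highest. In the day 28 list it fell from 2.37% to 1.05%, and in the day 0 list it was 1.06% in the lowest step and 0.906% in the highest. At days 9 and 28 coding sequence was thus most common among peaks near the caller's threshold, and at day 0 the intervals of the lowest and highest steps overlapped.

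**Figure D2:**
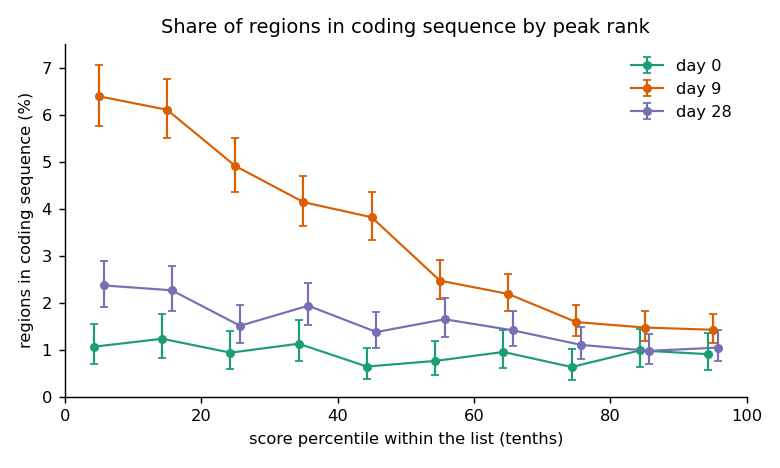
Each point is the percent of regions that are coding in a step of 10 percentiles of one day's list, ordered from the lowest to the highest score, with exact 95% binomial intervals, 1 line per day. The day 9 line falls from 6.39% to 1.42%, the day 28 line from 2.37% to 1.05%, and the day 0 line stays near 1%.

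Coding regions were slightly narrower than intronic regions, richer in G and C, and nearer to start sites. Their median width was 607 bp, against 652 bp for intronic and 644 bp for intergenic regions. It was 529 bp for day 9 only, 786 bp for days 9 and 28, and 1100 bp for all 3 days. Coding sequence made up a median of 54.4% of a region's length, 60.04% for day 9 only and 32.6% for all 3 days. A region spans all peaks merged into it, so regions of all 3 lists tend to be wider. A wider region around a CDS centre tends to hold less CDS, so the lower share is not a separate result. The median GC content within 50 bp of the centre was 60.4%, against 52.5% in intronic regions and 51.5% over tiled windows of CDS beyond 1 kb of a TSS. The median distance to the nearest TSS was 7877 bp, against 19879 bp for intronic regions.

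Coding sequence held more regions per base than the genome at large. CDS more than 1 kb from a TSS made up 1.14% of the genome's called bases but held 3.06% of the regions, a ratio of 2.69. The ratio was 3.01 for the day 9 list, 1.37 for the day 28 list and 0.812 for the day 0 list. Coding sequence was therefore below its share of the genome at day 0 and above it at days 9 and 28. With equal numbers of top peaks per list the ratio over all regions was 1.25.

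Setting coding and intronic sequence of like GC content side by side changed this picture. In sequence of 55 to 65% GC, which held 1242 of the coding regions, CDS carried 11.4 regions with a day 0 peak per Mb and introns 26.1, a ratio of 0.438 (0.353 to 0.537). At day 28 the densities were 35.5 and 59.96 per Mb, a ratio of 0.592 (0.525 to 0.666). At day 9 they were 141 and 114 per Mb, a ratio of 1.24 (1.17 to 1.32), and for day 9 only regions the ratio was 1.82 (1.69 to 1.95). In sequence of 45 to 55% GC, with 400 coding regions, the ratio was 0.550 (0.431 to 0.691) at day 0, 0.855 (0.767 to 0.95003) at day 9 and 0.603 (0.512 to 0.707) at day 28. Above 65% GC it was 0.739 (0.532 to 1.01), 1.43 (1.26 to 1.62) and 0.835 (0.685 to 1.01). Coding sequence thus carried fewer regions than introns at each stage in the 45 to 55% bin, and more at day 9 in the bins above 55%.

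The day 9 excess over introns depended on how it was measured. With GC content counted over a wider window the day 9 ratio in the 55 to 65% bin was 0.909, and with equal numbers of top peaks it was 0.614, so the direction turned under both. The day 9 only ratio was 1.32 with the wider GC window, and with equal numbers of top peaks it was 0.911 (0.722 to 1.14), an interval that spans equal density. The ratios at days 0 and 28 stayed below 1 under both settings, at 0.289 and 0.437 for day 0 and 0.431 and 0.470 for day 28. In sequence under 45% GC coding regions were scarce at every stage, with 1.53 per Mb of CDS at day 9 against 5.80 per Mb of intron.

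**Figure D3:**
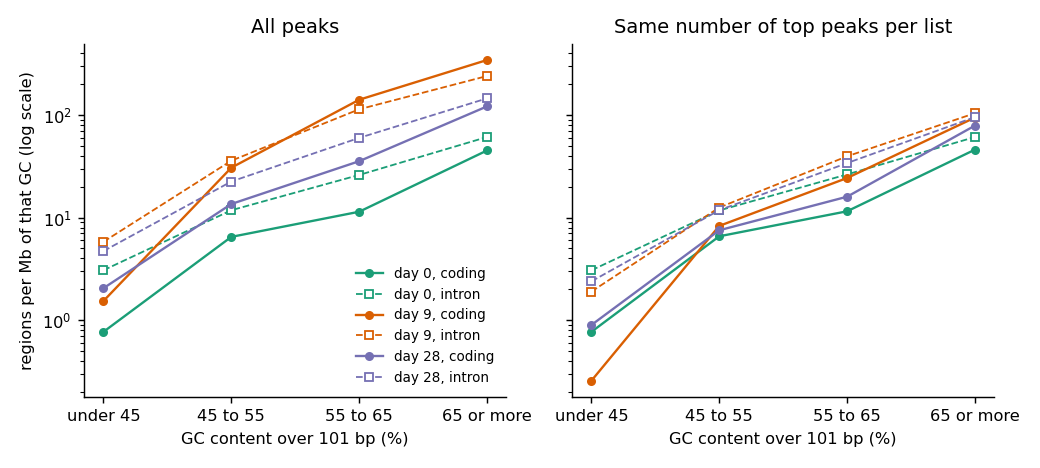
Points give regions per Mb, on a log axis, in coding sequence (filled, solid) and introns (open, dashed) in 4 bins of GC content around the position, coloured by day, with all peaks on the left and equal numbers of top peaks on the right. With all peaks the day 9 coding points stand above the intronic ones from 55% GC upwards (141 against 114 per Mb at 55 to 65%), and with equal top peaks every coding point lies below the intronic point of its day.

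The Runx core was concentrated at the centres of coding regions. TGTGGT, searched on both strands, lay within 50 bp of the centre in 437 coding regions, 21.1% (19.4 to 22.9). In windows of the same length placed 500 bp away the share was 8.64%, and over 287687 tiled windows of CDS it was 7.71%. Centres of coding regions thus held the core more often than their own flanks and than coding sequence in general. The share was lower than the 28.8% of intronic regions and the 28.1% of intergenic ones, and higher than the 6.67% of regions near a TSS.

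The share of coding regions with a core was similar in the main time patterns and varied with rank at day 28. It was 21.8% for day 9 only, 19.6% for days 9 and 28 and 17.98% for all 3 days. From the lowest to the highest 25 percentiles of the day 9 list it was 19.9, 22.1, 24.1 and 18.6%. In the same steps of the day 28 list it was 18.5, 25.3 (18.7 to 32.8), 21.3 and 10.5% (5.35 to 17.97). The intervals of the day 9 steps thus overlapped, whereas the highest-ranked day 28 regions held the core less often than those of the second step. Regions with the core were narrower than those without, with median widths of 510 and 631 bp.

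GC content went along with the core more closely than the stage did. In coding regions of 45 to 55% GC at the centre 30.0% held the core, in those of 55 to 65% GC 22.0%, and in those above this 9.11%. Intronic regions in the same bins held it in 32.7, 23.5 and 9.84%, and tiled CDS windows in 8.32, 8.15 and 4.86%. At like GC content, coding and intronic regions therefore held the core at nearly the same rate. Internal coding exons held it in 23.4% of regions, last ones in 19.1% and first ones in 13.6%.

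**Figure D4:**
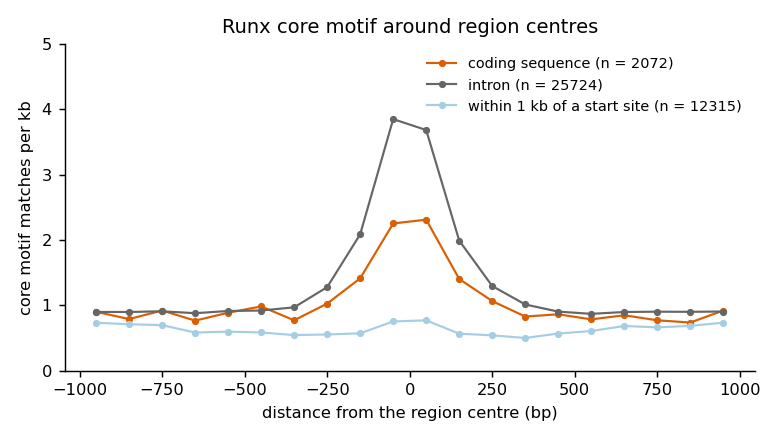
Lines give TGTGGT matches per kb, either strand, in 100-bp bins up to 1000 bp on each side of the region centre, for coding regions, intronic regions and regions within 1 kb of a start site. Coding regions reach 2.25 and 2.31 per kb in both central bins, below the 3.85 and 3.68 per kb of intronic regions and above the 0.755 and 0.771 per kb near start sites.

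Other sequences also differed in share between coding and intronic centres. TGCGGT, the core with a CpG in place of TG, was at the centre of 5.50% of coding regions, 2.87% of intronic regions and 2.02% of tiled CDS windows. TGTGGTT, which contains the core and 1 more base, was at 5.79% of coding regions, 10.8% of intronic ones and 1.64% of tiled CDS windows. The AP-1 sequence TGACTCA was at 1.74% of coding and 3.596% of intronic centres, beside 1.24% of CDS windows. The E-box CAGCTG was at 13.5% of coding centres, 9.60% of intronic centres and 8.58% of CDS windows, and the GC-box GGGCGG at 6.56%, 3.37% and 2.73%. The TEAD sequence GGAATG was at 4.54%, 6.94% and 5.26%. The CpG form of the core, the E-box and the GC-box were thus more frequent in coding than in intronic centres. The longer core, the AP-1 and the TEAD sequences were less so. These shares were not matched for GC content, which was higher at coding centres, or for time pattern. Among regions of all 3 days GGAATG was at 8.99% of coding and 8.89% of intronic centres, and TGACTCA at 1.12 and 5.97%. For day 9 only the shares were 3.76 and 4.56% for GGAATG, and 1.28 and 2.03% for TGACTCA. A match is a string of letters and was not tested for binding.

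Within codons the core lay in all 6 possible frames. Of 526 matches within 50 bp of the centres, 466 lay wholly in CDS, and 205 of these had TGTGGT on the strand of the gene, 44.0% against 50.4% of all matches in eligible CDS, meaning CDS more than 1 kb from a TSS. In the commonest frame, with 143 matches or 30.7% against 31.8% over CDS, TGTGGT began at the last base of a codon. The frame in which ACCACA is a pair of threonine codons took 24.2% (20.4 to 28.4) against 18.8%. The frame in which TGTGGT is a cysteine and a glycine codon took 8.58% (6.20 to 11.5) against 12.2%. The threonine frame was thus more frequent and the cysteine-glycine frame less frequent under Runx2 regions than over CDS as a whole. Some matches share a region, which the intervals leave out, and the CDS background was not matched for GC content or genes.

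The regions favoured long exons and the 3′ part of coding sequence. The median exon length under a centre was 349 bp, against 190 bp at tiled CDS positions, and 44.5% of centres lay in exons of 500 bp or longer, against 30.3%. Internal coding exons held 1298 regions, 62.6% (60.5 to 64.7), although they make up 74.98% of eligible CDS. Last coding exons held 24.95% against 16.7% of eligible CDS, first ones 7.09% against 3.96%, and single coding exons 5.31% against 4.39%. From the first to the last 20% of the coding sequence the shares were 12.5, 17.1, 20.8, 23.3 and 26.2%, against 14.5, 19.9, 21.3, 21.9 and 22.4% of the sequence itself. Centres were therefore tilted towards the 3′ end of coding sequence and away from short internal exons. The centre lay in CDS of every transcript annotated over it in 88.8% of regions.

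Fewer centres than tiled CDS positions lay near exon edges. A centre lay within 50 bp of an exon edge in 33.9% of coding regions, against 51.2% of tiled CDS positions. The region covered the whole exon in 54.3% of cases and lay inside it in 18.7%. At 200 bp to either side of the centre, 45.9 and 45.5% of day 9 only regions were still in CDS, against 29.5 and 29.4% for tiled positions. These comparisons were not matched for exon length. Exons under centres were longer, so the values are not a separate result.

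Coding regions lay close to other Runx2 regions. Another region was within 5 kb of 67.8% (65.7 to 69.8) of them, against 59.1% of intronic regions, 51.9% of intergenic regions and 46.2% of those near a TSS. For day 9 only coding regions this was 70.2%, whereas it was 54.8% for day 9 only intronic regions. The coding regions of day 28 only were more isolated, with a neighbour in 47.3%.

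The coding regions fell in 1773 genes, 7.93% of the 22359 protein-coding genes. Of these, 1539 genes had 1 coding region, 178 had 2, 41 had 3 and 15 had 4 or more. Over the 19585 genes with any eligible CDS the share was 9.05%. Gene lists below are set beside the 7.93%, which also counts genes without eligible CDS. Genes with a coding region also had a region within 1 kb of one of their own start sites in 71.1% (68.9 to 73.2) of cases, against 52.3% of the other genes. The share of genes with a coding region rose with the length of eligible CDS, from 2.13% of genes with under 500 bp to 25.1% of genes in the longest class.

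The genes with the most coding regions include those of large matrix, cytoskeletal and receptor proteins. Plec, which encodes the cytolinker plectin, had 6, all of them in the day 9 list and 2 also in the day 28 list. Its widest, chr15:76005471-76009562 in the last of 33 exons, spanned 4092 bp at percentiles 78.4 on day 9 and 32.2 on day 28. Cspg4, which encodes the NG2 proteoglycan, had 5 regions that were all in the day 9 list alone, 4 of them at or under percentile 8.08 and 1 at 61.6. Tnxb, which encodes the matrix protein tenascin X, had 5, led by a region in exon 2 of 41 at percentiles 79.2 and 18.6.

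Bsn, which encodes the presynaptic scaffold Bassoon, also had 5 coding regions. They stood at day 9 percentiles of 28.5, 92.7, 37.1, 69.7 and 97.4 from the 5′ to the 3′ side of the gene. The last of them, chr9:108006884-108008655 in exon 7 of 12, was the only one with a day 0 peak, at percentiles 43.9, 97.4 and 97.8. Unlike in Cspg4, therefore, a region of all 3 lists stood beside regions of lower day 9 rank within the same coding sequence. Genes with 4 coding regions included Aatk, Hmcn2, Itpr3, Lrp6, Myo10, Notch1, Notch3, Pkd1, Sulf2 and Zfp335. All 4 regions were in the day 9 list alone in Hmcn2, Itpr3, Notch1 and Zfp335. Sulf2, a heparan sulfate 6-O-endosulfatase, had 3 weak day 9 regions and 1 at percentiles 90.8 and 75.5 on days 9 and 28.

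The strongest coding regions present at all 3 days lay in genes of many kinds. Aes, which encodes a Groucho-related co-repressor, had a region at chr10:81025747-81027952 in exon 3 of 7, at percentiles 99.5, 97.4 and 97.8 on days 0, 9 and 28. Traf5, an adaptor of TNF receptors, had one at chr1:193893732-193894987 in its first coding exon, at the same 3 percentiles. Sfpi1, which encodes the myeloid ETS factor PU.1, had one in its last exon at chr2:90954720-90955938, at 98.6, 97.4 and 97.8. These 3 regions were near the top of every list. CDS made up 7.80% of the Aes region, 17.4% of the Traf5 region and 26.0% of the Sfpi1 region.

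Shc2, an adaptor of receptor tyrosine kinases, had a region at 96.9, 97.4 and 99.7, and Rhbdl2, a rhomboid protease, one at 95.8, 97.4 and 97.8. Pop1, a subunit of RNase P and RNase MRP, followed at 93.4, 97.4 and 99.7 in the last of 17 exons. Coq10a, a coenzyme Q-binding protein, stood at 92.5, 97.4 and 97.8, and Cobl, an actin nucleator, at 94.7, 97.4 and 94.9. CDS made up 21.9% of the Shc2 region, 14.1% of that in Rhbdl2, 42.2% in Pop1, 17.6% in Coq10a and 100% in Cobl. The Coq10a centre lay 1247 bp from a TSS in a region 1631 bp wide, so that region reached to within 1 kb of the TSS. None of the 8 regions had TGTGGT within 50 bp of its centre. Among all coding regions bound at all days 17.98% did, and 8 regions are too few to tell apart from that share.

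The regions of days 9 and 28 were led by a pair in last exons. In the group of days 9 and 28, Tmem43, which encodes an inner nuclear membrane protein, had a region in exon 12 of 12 at percentiles 97.4 and 99.8. Tesk1, a kinase of cofilin, had one in exon 10 of 10 at 97.4 and 99.7 with the core at its centre, and 4833422F24Rik one in exon 2 of 3 at 97.4 and 94.96. Adamts4, an aggrecan-degrading metalloprotease whose last exon the study examined, had a coding region at chr1:173188729-173189672 in exon 9 of 9, at 97.4 and 92.5 with no day 0 peak. The same gene had a region at its start site at 29.1, 97.4 and 97.8 on days 0, 9 and 28, and an intergenic one just past its 3′ end at 73.2 and 53.4 on days 9 and 28. The coding region of Adamts4 thus lacked the day 0 peak that its start site had, and no core lay at its centre.

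The highest-ranked day 9 only regions stayed below percentile 90 of the list. Exoc4, an exocyst subunit, stood at 88.1 in the last of 18 exons, Tns1, the focal adhesion protein tensin, at 83.9 with the core at its centre, and Plcd1, a phospholipase C, at 83.5. Among day 0 only regions, Ttll5, a tubulin polyglutamylase, stood at 88.9, Zfp961 at 74.3 and Bcmo1, which cleaves beta-carotene, at 71.8. All of these were therefore well above the caller's threshold in their own list and absent from the other lists. CDS made up 5.61% of the Ttll5 region, 53.9% of the Zfp961 region and 7.98% of the Bcmo1 region.

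The smallest patterns held genes of several kinds. In days 0 and 9, Eya1, a transcriptional co-activator with phosphatase activity, stood at 86.2 and 76.8 with a core at the centre, Chrna3, a nicotinic receptor subunit, at 59.3 and 78.3, and Kif5c, a kinesin motor, at 63.5 and 3.81. In days 0 and 28, Col24a1, a fibrillar collagen, stood at 75.9 and 46.6, Defb45, a beta-defensin, at 84.9 and 11.7, and Fgd1, an exchange factor for Cdc42, at 62.3 and 13.2. These regions were named for their high rank, and over all 20 coding regions of days 0 and 9 the median day 0 percentile was 20.1. CDS made up 21.1% of the Eya1 region, 60.4% of the Chrna3 region and 6.87% of the Kif5c region. At the edge of the rule, regions in 2810432D09Rik and Eepd1 were counted at 1003 bp from a TSS, and CDS-centred regions in Haghl and Uap1l1 were not, at 999 and 997 bp.

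A few genes had most of their coding exons under Runx2 peaks of the day 9 list alone. Among 11946 genes with at least 6 coding exons, 5 had 75% or more of them touched by peaks of that list only, and 0 genes had this for the day 0 list. The count for the day 28 list is not reported here, so such cover is not shown to be particular to day 9. The 5 genes were Solh with 11 of 11 exons, Rhbdl1 with 7 of 8, Sgta with 8 of 10, Rab26 with 7 of 9 and Dus3l with 10 of 13. They were named after their values were seen.

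Some genes of the Runx family had coding regions, and these lay in last exons. Of 7 genes for Runx proteins and their partners, 4 had a coding region (57.1%, 18.4 to 90.1). This compares with 7.93% of all protein-coding genes and 9.05% of those with eligible CDS. Runx2 itself had one at chr17:44744691-44745427, in exon 9 of 9 of the model with the longest CDS, at percentiles 25.003 on day 0 and 8.33 on day 9. A second Runx2 region at chr17:44633609-44634206, in exon 6 of 6 of another annotated model, stood at 45.4 on day 9. Runx1 had one in exon 8 of 8 at percentiles 50.3 and 10.8 on days 9 and 28 with the core at its centre. The co-repressors of the ETO family, Cbfa2t2 at 68.5 and 23.0 on days 9 and 28 and Runx1t1 at 28.4 on day 9, completed the group. All 5 regions of these 4 genes had a day 9 peak, as had 94.9% of all coding regions, and the other 3 genes of the list had no coding region.

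Of 48 osteoblast transcription factor genes, 10 had a coding region (20.8%, 10.5 to 35.0) against 7.93% of all genes, and their CDS held 222 regions per Mb against 71.3 over all genes. Dlx6, a homeobox factor of bone and limb, had the highest at chr6:6816939-6817581, at percentiles 88.1 and 38.4 on days 9 and 28 with 2 cores at its centre. Sp7, which encodes osterix, the zinc finger factor needed downstream of Runx2, had a region in its last exon at chr15:102188386-102189753, at 71.5 and 5.73 on days 9 and 28. Others were Gli2 and Gli3 of the hedgehog pathway, Tbx2, Tbx3, Tead1, Fosl2 and Runx2. Of these, Gli2 had 2 regions in its last exon at day 9 percentiles of 24.3 and 36.7.

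Bone matrix and mineralization genes had coding regions in 15 of 55 (27.3%), against 7.93% of all genes, which is 3.44 times that share. Per Mb of eligible CDS they held 131 regions against 71.3, which is 1.84 times as many. Alpl, the alkaline phosphatase of mineralizing matrix, had a region in all 3 lists at chr4:137304343-137306642, centred in exon 7 of 12. It stood at percentiles 81.5, 97.4 and 90.6, and CDS made up 6.26% of its 2300 bp. Ltbp3, which holds latent TGF-beta in the matrix, had 3, led by one in its first coding exon at 66.2, 73.4 and 79.3. Alpl, Ltbp3 and Adamts4 were the only genes of the list with a coding region above percentile 70 at day 9.

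The other matrix genes held regions of lower rank. Dspp, the dentin sialophosphoprotein, stood at 59.5 on day 9, and Phospho1, a phosphatase that starts mineralization in matrix vesicles, at 50.0 on day 9. Col1a2, the alpha 2 chain of type I collagen, had regions in exons 5 and 44 of 52, at 17.96 and 61.9 on day 9 and 7.25 and 19.7 on day 28. Serpinh1, the collagen chaperone, stood at 47.5 and 7.20 on days 9 and 28 with the core at its centre. No region of these 4 genes had a day 0 peak. Fn1, Hspg2, Tnc, Lrp1, Mmp14, Adamts5, Col5a1 and Thbs1 made up the rest, with day 9 percentiles from 4.54 to 41.2.

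Collagen genes had coding regions in 13 of 43 (30.2%), against 7.93% of all genes, which is 3.81 times that share. Per Mb of eligible CDS they held 105.4 regions against 71.3, which is 1.48 times as many. Col6a3, a chain of the microfibrillar type VI collagen, had one in exon 37 of 43 at chr1:92671715-92672982, at 99.7 on day 9 and 90.2 on day 28. Col15a1, a basement membrane collagen, had one in exon 39 of 40 at 97.5, 89.8 and 66.8 on days 0, 9 and 28. Col12a1, a collagen on the surface of fibrils, had 1 region in all lists at 22.8, 61.5 and 72.7 and another of day 0 only at 1.31. Apart from these and Col24a1, no collagen had a coding region with a day 0 peak. Over the 13 genes, Col6a3 and Col15a1 alone passed percentile 80 in any list.

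Genes of bone signalling pathways had coding regions in 19 of 72 (26.4%) against 7.93% of all genes, at 199 regions per Mb against 71.3. Fzd7, a Wnt receptor, had a region 4238 bp wide over its single exon at percentiles 34.6, 94.9 and 97.8 on days 0, 9 and 28. Smad6, the inhibitory Smad of BMP signalling, had one in its first exon at 83.8 and 66.0 on days 9 and 28 and one in its last exon at 5.07 on day 9. Pth1r, the receptor of parathyroid hormone, had 2 day 9 regions, at 64.2 and 19.1. Wnt5a and Wnt10b, which are Wnt ligands, and Nog and Chrd, which are secreted BMP antagonists, had 1 region each on day 9 alone, none above percentile 8.76.

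Notch receptors were prominent in the signalling list. Notch1 had 4 coding regions of day 9 only, at 10.2, 35.1, 3.72 and 67.6 along the gene, with the highest in its last exon. Notch3 had 4 as well, with its highest, 70.1 on day 9 and 21.6 on day 28, again in the last exon, and Notch2 had 2, at 7.86 and 27.8. In all 3 genes the last exon, which encodes the intracellular C-terminus, carried the highest-ranked region. Lrp6, the Wnt co-receptor, had 4 regions of mixed timing, at 24.4 and 11.3 on days 9 and 28, at 25.7 on day 28 only, at 3.81 on day 9 only, and at 26.0 and 16.6 on days 0 and 9. Acvr2b, a receptor of activins and BMPs, stood at 58.1 and 13.9 on days 9 and 28, and Insr, the insulin receptor, at 34.1 on day 28 alone.

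Chromatin regulators had coding regions in 20 of 61 genes (32.8%), against 7.93% of all genes. Their coding sequences are long, and per Mb they held 84.6 regions, close to the 71.3 of all genes. Ep300, a histone acetyltransferase, stood at 72.5 and 47.0 on days 9 and 28 in exon 2 of 31, and its paralogue Crebbp at 46.3 and 9.53 in the last exon. Ino80, the ATPase of a remodelling complex, stood at 53.8 and 55.2. Kat2b, an acetyltransferase, stood at 40.3 and Hdac7, a deacetylase, at 35.6, both on day 9 alone. Chd7, a remodeller of the chromodomain family, was the only gene of the list with a day 0 peak, at 1.57, 49.4 and 21.7 on days 0, 9 and 28. Mll2, a methyltransferase of histone H3 lysine 4, had 3 day 9 regions, at 39.2, 35.7 and 12.8.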

How the data were processed

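The authors mapped reads to mm9 with Bowtie 0.12.8 after base calling with CASAVA 1.6 and called peaks with MACS 1.4.1. They pooled biological repeats and deposited 1 peak list per day at p 1e-10, with a score per peak that rises as the p-value falls. Lowest score was 100, and 192, 2699 and 1468 peaks at days 0, 9 and 28 shared the score 3100. Read totals stated by the study were not used, and the lists hold none. Peaks were merged, classified by GENCODE M1 and counted with Python 3.11.15 and NumPy 2.4.6, and intervals were exact (Clopper-Pearson, SciPy 1.17.1). Sequences were read from the mm9 reference. The scripts were tested on simulated data. Members and gene lists were chosen with earlier results of these data known. Named regions were the 8 highest in all 3 lists, the 3 highest of each other pattern, the genes with the most regions, and list members, the 8 highest of each list by value. No test was made, since each day had 1 list. Some regions and genes that this rule names are not reported here. Other peak thresholds, distances, annotations and list sizes were tried.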

Additional observations from a re-analysis of the deposited data

How the results depend on the processing

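Alternatives were compared with the counting interval of each value. The direction against introns turned for the coding to intron density at day 9. For day 9 only regions the ratio crossed with equal top peaks alone, and its interval spans equal density, so no direction is read from it. With equal top peaks the direction against all regions turned for the pattern of days 9 and 28. Values for days 0 and 9 and for day 28 only crossed too, on 13 and 46 coding regions, and no direction is read from them. The ratio of some gene lists to all genes crossed equality between gene shares and regions per Mb. It went from 1.68 to 0.162 for muscle, 1.80 to 0.354 for myosin heavy chain and 2.29 to 0.811 for laminin genes. For neuron genes it went from 2.70 to 0.911, for kinesin 2.65 to 0.99 and for RNA helicase 1.17 to 0.576. For protocadherin genes it went from 1.05 to 0.882, keratin 0.989 to 1.04, Hox 0.647 to 1.76 and histone 0.188 to 21.4. At scores of 200 or more there were 811 coding regions in 749 genes, 1.98% of regions, with a day 9 only share of 53.0%, median day 9 percentile 34.5, internal exon share 59.4% and genome ratio 1.74. At scores of 500 or more these were 323, 310, 1.47%, 42.1%, 44.1, 52.6% and 1.29, and 18.6% held TGTGGT. With start sites over 500 bp away the share was 3.46%, day 9 only 64.96%, percentile 32.3, internal exons 58.0% and ratio 2.82. Over 2000 bp the share was 2.62%, internal exons 65.9% and ratio 2.51, and over 5000 bp there were 1314 regions in 1131 genes, 1.94%, TGTGGT 23.6%, internal exons 70.0% and ratio 2.29. Start sites of all transcript types gave 2.66% and internal exons 59.6%, and CCDS transcripts 2.87%. Any overlap with CDS gave 5145 regions in 3559 genes, 7.60%, day 9 only 55.2% and percentile 37.0. Equal top peaks gave 538 regions in 511 genes, 1.42%, day 9 only 25.5%, percentile 42.2, internal exons 57.6% and ratio 1.25. Without the day 0 list the share was 3.21% and the ratio 2.83. Without the day 9 list there were 660 regions in 623 genes, 1.48%, internal exons 56.7% and ratio 1.301, and a day 9 share could not be given. Without the day 28 list the share was 3.20%, day 9 only 88.0% and the ratio 2.82. TGCGGT or TGTGGT was at 25.6%, TGTGGT within 100 bp at 34.5% and anywhere at 61.9%. The coding to intron ratios at 55 to 65% GC were, with GC over the wider window and with equal top peaks, 0.289 and 0.437 at day 0, 0.909 and 0.614 at day 9, 0.431 and 0.470 at day 28, and 1.32 and 0.911 for day 9 only. Settings added after the data were seen were the wider GC window and the equal lists for density. No paired analysis was possible because each day had 1 list. Depth, the input and the antibody's background could not be separated from stage.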

Other observations

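Gene families outside the bone lists differed in how often their coding sequence was bound, beside 7.93% of all genes and 71.3 regions per Mb of eligible CDS over all genes. Of 32 integrin genes, the cell surface receptors for matrix, 7 had a coding region, and their coding sequence held 142 regions per Mb. Of 19 Adamts protease genes 7 had one, at 108 per Mb, and of 38 kinesin genes 8 had one, at 70.5 per Mb. Of 429 genes for C2H2 zinc finger proteins named Zfp, Zbtb, Zscan or Zkscan, 49 had one (11.4%), at 81.4 per Mb. Olfactory receptor genes had 1 coding region in 1113 genes and 15.01 per Mb of the little eligible sequence they hold. Coding regions were in 5 of 54 ATP-dependent RNA helicase genes (41.1 per Mb), 4 of 51 keratin genes (74.5), 3 of 36 protocadherin genes (62.8), 2 of 11 laminin genes (57.8), 2 of 14 myosin heavy chain genes (25.2), 2 of 39 Hox genes (125.6) and 1 of 76 ribosomal protein genes (35.2). Of 67 histone genes 5 had any eligible CDS, and 1 had a coding region.

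Markers of other lineages were also bound in coding sequence. Of 15 chondrocyte marker genes 2 had a coding region (13.3%, 76.3 regions per Mb), as had 2 of 10 adipocyte genes (20%, 189.6 per Mb), 2 of 15 muscle genes (13.3%) and 3 of 14 neuron genes (21.4%, 64.9 per Mb), against 7.93% of all genes. The exact intervals of these 4 shares hold 7.93%. Of 9 blood cell marker genes 0 had one, with an exact interval up to 33.6%. The muscle genes held 11.5 coding regions per Mb of eligible CDS, so their share of genes (13.3%) was above that of all genes while their density was below. Of the 42 genes listed as lower after Runx2 knockdown at day 9, 6 had a coding region (14.3%, 5.43 to 28.5), at 113 per Mb, and of the 108 genes listed as higher, 6 had one (5.56%, 2.07 to 11.7), at 42.4 per Mb. Both intervals hold the 7.93% of all genes. Those knockdown lists were chosen by the study on arrays from the same cell line.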
